A study of Homo sapiens with 2 samples.

Results

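The genes described here encode MYC, its partner MAX, the nucleolar machinery that makes ribosomes, and a few metabolic enzymes that are textbook MYC targets. They were chosen by name as 45 genes and grouped by step. Values were taken from Affymetrix probe sets to which the platform annotation gives a single gene symbol. Of the 45 genes, 39 had such a probe set, out of 19775 genes so measured in the series. All 39 were detected, meaning that the mean log2 intensity over both arrays was at or above the 40th percentile over the table, an intensity of 63.7. Of the remaining genes, NOP56, DKC1, BOP1 and PPAN were read only by probe sets that also carry the symbols of other genes. Intensities of GNL3 and EBNA1BP2 were not analysed here.

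The samples were cultures of RKO, an established cell line from a human colon cancer. They carried a retrovirus with a hairpin against the long form, BCLAF1-L, of the nuclear protein BCLAF1 (sh-BCLAF1-L) or with the luciferase control hairpin (sh-Luci). Both cultures had a medium change 24 h after infection and were then kept in puromycin at 2 ug/ml for 72 to 96 h, and each was hybridised to 1 array. There was thus no replicate, no p-value was computed, and 1 hairpin stood for the knockdown. Deposited intensities ran from 1 to 16650 on the sh-BCLAF1-L array and from 1 to 17349 on the sh-Luci array, with medians of 84.5 and 82.7. BCLAF1 read 945 in sh-BCLAF1-L and 2505 in sh-Luci on its brightest probe set, a difference of -1.41 on the log2 scale, and was lower on all 6 of its probe sets. The 3' to 5' ratio of the ACTB control probe sets was 3.81 on the sh-BCLAF1-L array and 3.41 on the sh-Luci array. The 18 probe sets of the biotin spike-ins had a median difference of 0.20. The part of these array differences in the results below was not tested. Of the epithelial markers, 5 of 8 were detected and 3 of these were lower. EPCAM read 472 in sh-BCLAF1-L and 477 in sh-Luci, KRT18 674 and 979, and CLDN7 96.5 and 88.9, whereas CDH1 lay below detection on both arrays. Detected markers of other cell types were 4 of 8 for fibroblasts and 3 of 5 for endothelium. Of 8 blood cell markers, 5 had a probe set with 1 symbol and 2 were detected. PTPRC, CD14 and LYZ were below detection, whereas CD3E read 111 in sh-BCLAF1-L and 135 in sh-Luci, and HBB 226 and 196. The fibroblast marker COL1A1 read 397 in sh-BCLAF1-L and 355 in sh-Luci, and the endothelial marker VWF 194 and 177. In a bulk culture, fewer cells that carry a transcript and less of it per cell cannot be told apart.

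Ribosome production starts in the nucleolus, where RNA polymerase I copies the ribosomal DNA into a long precursor RNA (pre-rRNA). Small nucleolar ribonucleoproteins (snoRNPs) direct the chemical modification of that precursor, and assembly factors then cut and fold it into the small and the large ribosomal subunit. MYC, a transcription factor that binds DNA together with MAX, is known to raise many genes of this pathway as well as genes of polyamine and nucleotide synthesis. The sequence that the pair binds best is CACGTG, called the E-box.

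Most of these genes read slightly lower in sh-BCLAF1-L. The difference used throughout is log2(intensity + 1) in sh-BCLAF1-L minus that in sh-Luci, taken on the brightest probe set of a gene. Of the 39 genes, 30 lay below 0 and 9 above, against 45% of all 14507 detected genes below 0. Their median difference was -0.091 (quartiles -0.14 and -0.0072), and that of all detected genes was 0.019. At least 1.2-fold lower were 4 of the 39, namely MYBBP1A, NOP14, RRP9 and PES1, against 4.26% of all detected genes. None was at least 1.2-fold higher, against 6.86% of all detected genes. None reached 1.5-fold in either direction, where all detected genes had 0.2% lower and 0.434% higher.

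The sizes were small beside the disagreement between probe sets. Probe sets of the same gene differed with a pooled SD of 0.16 on the log2 scale over 6752 genes, and of 0.15 over the 20 genes of this group with at least 2 detected probe sets. Only 7 of the 39 genes lay further from 0 than 0.16, all 7 of them lower, against 12.6% of all detected genes that far below 0 and 18.5% that far above. That SD holds no spread between cultures, infections or arrays. Over all 74 detected probe sets of the 39 genes, 56 were lower, against 46.1% of the detected probe sets in the whole table. The 35 that were not the brightest of their gene had 26 lower and a median of -0.082. Of the 20 genes with at least 2 detected probe sets, 8 were lower on every such probe set and none was higher on every one, against 19.2% and 25.8% of such genes in the whole table. In the other 12 the probe sets disagreed in sign.

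**Figure D1:**
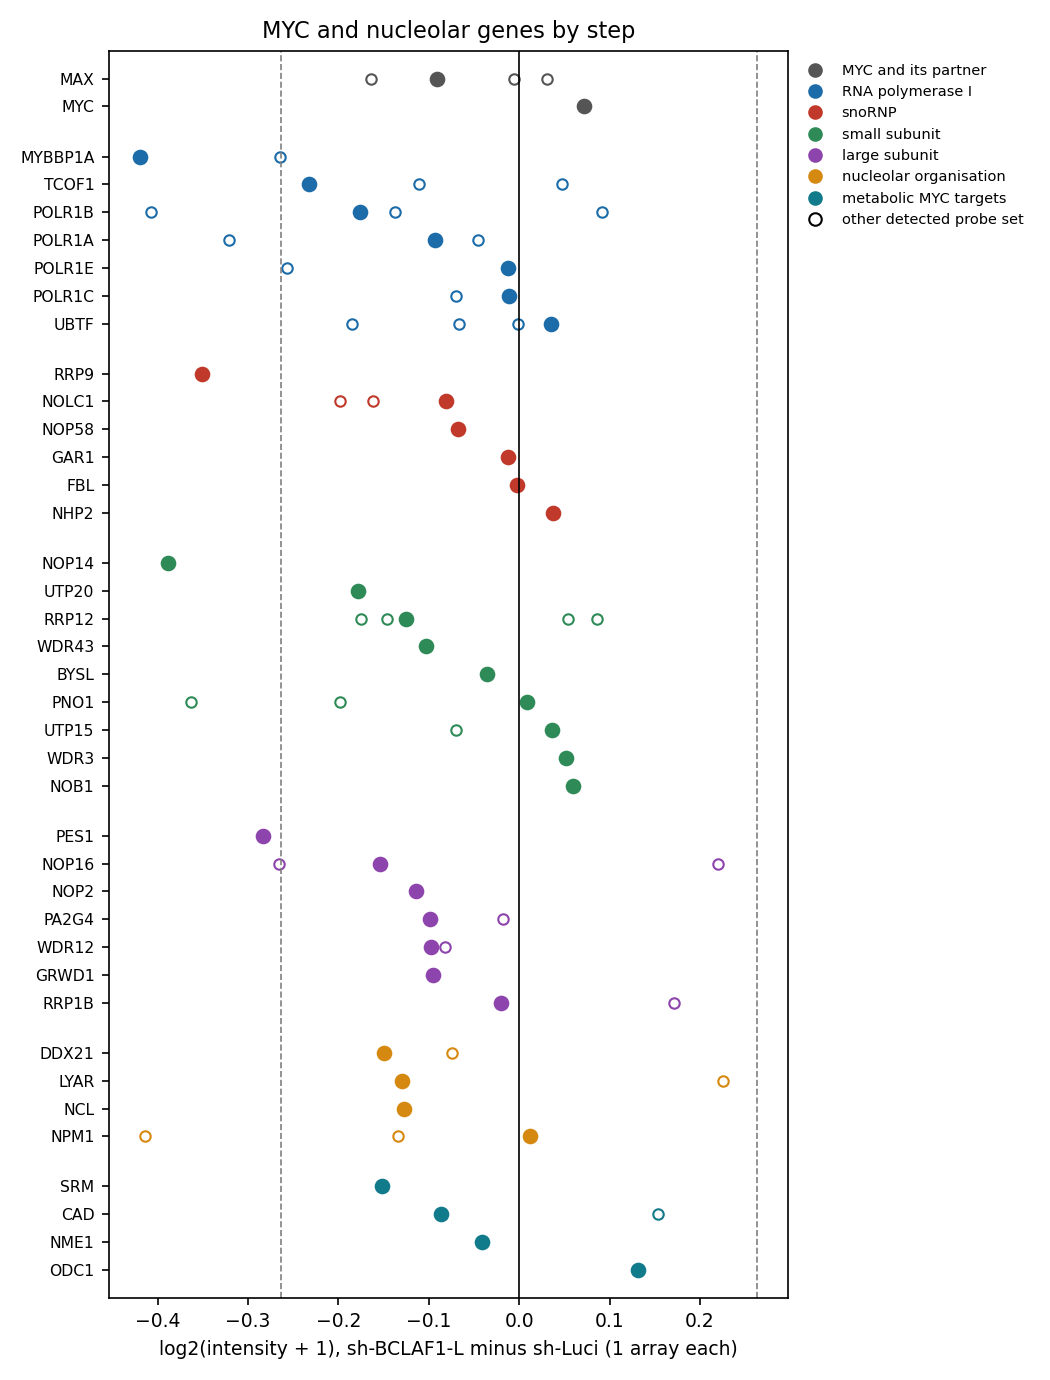
Log2 difference of each gene (x axis, sh-BCLAF1-L minus sh-Luci, 1 array each), grouped by step. Filled points are the brightest probe set and open points the other detected probe sets, and dashed lines mark 1.2-fold. Of the 39 filled points, 30 lie left of 0 and 4 left of the lower dashed line.

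The promoters of the 4 genes past 1.2-fold are shown as the regulatory sequence of the genes with the largest differences, and each holds 1 E-box. Each line gives the 300 bases from 250 before to 50 after the RefSeq start site (GRCh38.p14), 5' to 3' on the strand of the gene, all 4 of them on the minus strand. The capitals mark CACGTG. The windows are chr17:4555335-4555634 for MYBBP1A, chr4:2963357-2963656 for NOP14, chr3:51941855-51942154 for RRP9 and chr22:30591861-30592160 for PES1.
MYBBP1A: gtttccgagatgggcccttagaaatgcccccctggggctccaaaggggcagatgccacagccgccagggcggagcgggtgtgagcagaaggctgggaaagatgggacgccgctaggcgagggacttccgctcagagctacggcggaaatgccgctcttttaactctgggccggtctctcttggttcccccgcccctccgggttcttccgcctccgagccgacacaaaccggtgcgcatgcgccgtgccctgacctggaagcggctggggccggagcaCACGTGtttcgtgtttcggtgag
NOP14: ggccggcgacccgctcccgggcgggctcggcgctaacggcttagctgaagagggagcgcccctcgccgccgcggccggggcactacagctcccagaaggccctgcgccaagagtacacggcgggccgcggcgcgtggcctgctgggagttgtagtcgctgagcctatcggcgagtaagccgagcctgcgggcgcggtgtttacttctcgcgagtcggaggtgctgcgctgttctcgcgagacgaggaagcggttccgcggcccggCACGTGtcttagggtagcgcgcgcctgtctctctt
RRP9: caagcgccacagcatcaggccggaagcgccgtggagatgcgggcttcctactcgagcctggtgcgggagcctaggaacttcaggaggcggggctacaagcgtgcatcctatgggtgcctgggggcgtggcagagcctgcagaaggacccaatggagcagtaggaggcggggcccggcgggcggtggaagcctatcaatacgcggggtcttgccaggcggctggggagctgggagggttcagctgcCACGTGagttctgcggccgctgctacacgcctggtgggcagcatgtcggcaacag
PES1: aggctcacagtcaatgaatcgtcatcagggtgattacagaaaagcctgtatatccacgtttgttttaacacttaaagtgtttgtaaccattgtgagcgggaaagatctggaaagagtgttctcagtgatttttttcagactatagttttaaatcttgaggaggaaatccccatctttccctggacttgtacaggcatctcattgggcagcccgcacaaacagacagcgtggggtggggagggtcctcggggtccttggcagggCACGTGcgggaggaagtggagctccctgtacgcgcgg

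In these windows the E-box started 28 bases into the transcript in MYBBP1A, 16 in NOP14 and 14 in PES1, and 5 bases before the start site in RRP9. RefSeq promoters were found for 37 of the 45 genes, and 13 of these, or 35.1%, held CACGTG, which reads the same on both strands. Over all promoters of the table the share was 7.43%, and over those of protein-coding genes 8.88%. Over 141 promoters of the wider pre-rRNA genes described below it was 27.0%. In 11 of the 13 the motif started within 50 bases of the start site, and in EBNA1BP2 and SRM it lay 237 and 199 bases before it. The other promoters with the motif were those of BYSL, FBL, NME1, NOP2, PNO1, UTP20 and WDR43. Each of 4 further motifs was searched on both strands, and none of their matches overlapped another match in the 4 promoters shown. CCGGAAG, the core bound by ETS factors, was in 27.0% of the promoters of these genes against 14.2% of protein-coding promoters. TCGCGA was in 16.2% against 4.39%, GGGCGG, bound by SP factors, in 73.0% against 58.5%, and CCAAT, bound by NF-Y, in 29.7% against 36.4%.

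Among genes with a value and a promoter, the 12 with an E-box had a median difference of -0.13 and 11 were lower. The 20 without one had a median of -0.089 and 13 were lower. Over the whole table the 1123 detected genes with an E-box had a median difference of 0.016 and 45.8% lower. The 10467 without one had 0.019 and 44.8% lower. At least 1.2-fold lower were 3.12% of the detected genes with an E-box and 4.29% of those without. Of the wider pre-rRNA genes described below, 22 of 38 with the motif were lower (57.9%) and 64 of 99 without it (64.6%). Their medians were -0.042 and -0.034. These shares are descriptions of a fixed window of sequence and carry no measurement of binding.

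MYC itself was not lower. Its only probe set read 4097 in sh-BCLAF1-L and 3899 in sh-Luci, a difference of 0.07, within the probe set SD. MAX, the partner that MYC needs to bind DNA, read 1300 in sh-BCLAF1-L and 1385 in sh-Luci, a difference of -0.09, and its other detected probe sets ran from -0.16 to 0.03.

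Among RNA polymerase I genes, 6 of 7 were lower, with a median of -0.093. MYBBP1A, a nucleolar MYB-binding protein that takes part in ribosomal DNA transcription and precursor processing, read 307 in sh-BCLAF1-L and 410 in sh-Luci. It was 1.34-fold lower, and its second probe set, at 193 and 232, differed by -0.26. Of the 14507 detected genes, MYBBP1A stood 136th from the lowest difference. TCOF1, the treacle protein that holds polymerase I and UBTF at the ribosomal DNA, read 497 in sh-BCLAF1-L and 584 in sh-Luci, a difference of -0.23. Its other probe sets disagreed, at -0.11 and 0.05.

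The subunits of the polymerase differed less on their brightest probe sets. POLR1B, the second-largest catalytic subunit, read 870 in sh-BCLAF1-L and 984 in sh-Luci, a difference of -0.18, and its other 3 probe sets gave 0.09, -0.14 and -0.41. POLR1A, the largest catalytic subunit, read 201 in sh-BCLAF1-L and 214 in sh-Luci, and its 3 probe sets were all lower, from -0.32 to -0.05. POLR1C, shared with RNA polymerase III, and POLR1E each differed by -0.01, and their second detected probe sets by -0.07 and -0.26. UBTF, the factor that opens the ribosomal DNA for the polymerase, read 393 in sh-BCLAF1-L and 383 in sh-Luci, a difference of 0.03, with its dimmer detected probe sets from -0.19 to -0.0010.

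The snoRNP genes were lower in 5 of 6, with a median of -0.040 (-0.074 over the 4 genes left without _s_at and _x_at probe sets), but only RRP9 stood out in size. RRP9, the protein particular to the U3 snoRNP that starts small subunit processing, read 167 in sh-BCLAF1-L and 213 in sh-Luci, 1.28-fold lower, on its only probe set. NOLC1, a chaperone of snoRNPs also known as Nopp140, read 1605 in sh-BCLAF1-L and 1697 in sh-Luci, a difference of -0.08, and its other probe sets differed by -0.20 and -0.16. The core proteins lay near 0. FBL, the methyltransferase of box C/D snoRNPs, read 3807 in sh-BCLAF1-L and 3815 in sh-Luci. NOP58, of the same particle, differed by -0.07. In the box H/ACA particle, which makes pseudouridine, GAR1 differed by -0.01 and NHP2 by 0.04.

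Small-subunit processing factors were divided, with 5 of 9 lower and a median of -0.035, against 8 of 9 and -0.12 with the median over probe sets. NOP14, a component of the early small-subunit particle, read 651 in sh-BCLAF1-L and 853 in sh-Luci and was 1.31-fold lower on its only probe set. UTP20, a large scaffold of the same particle, read 391 in sh-BCLAF1-L and 443 in sh-Luci, a difference of -0.18. RRP12, which takes part in export of the particle, differed by -0.12, and its 5 probe sets ran from -0.17 to 0.09. WDR43, of the subcomplex that also takes part in polymerase I transcription, differed by -0.10, and BYSL by -0.04.

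The other 4 small-subunit genes lay above 0 on their brightest probe set. UTP15, which sits in one subcomplex with WDR43, differed by 0.04, WDR3 by 0.05 and NOB1, the nuclease of the last cut of 18S RNA, by 0.06. PNO1, the partner of NOB1, read 810 in sh-BCLAF1-L and 805 in sh-Luci on its brightest probe set, a difference of 0.0089, but 665 and 763 on the second and 76.4 and 98.5 on the third. With the median over the probe sets of a gene, PNO1, WDR3 and UTP15 differed by -0.20, -0.13 and -0.017. The WDR3 value includes an undetected WDR3 probe set, at 25.45 in sh-BCLAF1-L and 31.69 in sh-Luci. PNO1 also went below 0 after centring on the median difference (-0.017) or on a loess curve (-0.0061), and without its _s_at and _x_at probe sets (-0.36).

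All 7 large-subunit genes with a value were lower on their brightest probe set, with a median of -0.098 and differences from -0.28 to -0.02. PES1, which with BOP1 and WDR12 forms the PeBoW complex of large-subunit processing, read 561 in sh-BCLAF1-L and 683 in sh-Luci, 1.22-fold lower on its only detected probe set. WDR12 read 1301 in sh-BCLAF1-L and 1392 in sh-Luci, a difference of -0.10, and its second detected probe set differed by -0.08. NOP16 differed by -0.15 on its brightest probe set (1264 in sh-BCLAF1-L and 1407 in sh-Luci), by -0.27 on the second and by 0.22 on the third. The rRNA methyltransferase NOP2 differed by -0.11, the ErbB3-binding protein PA2G4 by -0.10, the histone-binding protein GRWD1 by -0.09 and RRP1B by -0.02. The sign of RRP1B turned to 0.076 with the median over its probe sets.

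Of the abundant nucleolar proteins, 3 of 4 were lower on the brightest probe set, with a median of -0.13, and 2 of 4 with the median over probe sets, where the median was -0.038. DDX21, an RNA helicase of ribosomal RNA transcription and processing, read 2532 in sh-BCLAF1-L and 2809 in sh-Luci, a difference of -0.15, with -0.07 on its other probe set. NCL, nucleolin, read 5176 in sh-BCLAF1-L and 5655 in sh-Luci, a difference of -0.13. LYAR differed by -0.13 on one probe set and 0.23 on the other. With the median over probe sets, NCL and LYAR differed by 0.037 and 0.048, where the NCL value includes an undetected NCL probe set.

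NPM1, nucleophosmin, showed the widest disagreement in this step. Its brightest probe set read 11113 in sh-BCLAF1-L and 11017 in sh-Luci, a difference of 0.01. The other probe sets read 6605 and 7248, and 3915 and 5216, differences of -0.13 and -0.41. All 3 have _s_at or _x_at names, the class that can match several transcripts, so which NPM1 transcript or related sequence each reads is uncertain. NPM1 differed by -0.13 with the median over probe sets and by -0.013 after subtraction of the median difference.

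Of the metabolic MYC targets, 3 of 4 were lower with a median of -0.063, but 2 of 4 with a median of -0.0036 when the median over probe sets was used. SRM, spermidine synthase, read 791 in sh-BCLAF1-L and 879 in sh-Luci, a difference of -0.15. ODC1, the first enzyme of polyamine synthesis, read 5551 in sh-BCLAF1-L and 5066 in sh-Luci. Its difference of 0.13 was the highest of the 39 genes. CAD, which starts pyrimidine synthesis, differed by -0.09 on one probe set and 0.15 on the other, and by 0.034 with their median. NME1, a nucleoside diphosphate kinase, differed by -0.04.

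**Figure D2:**
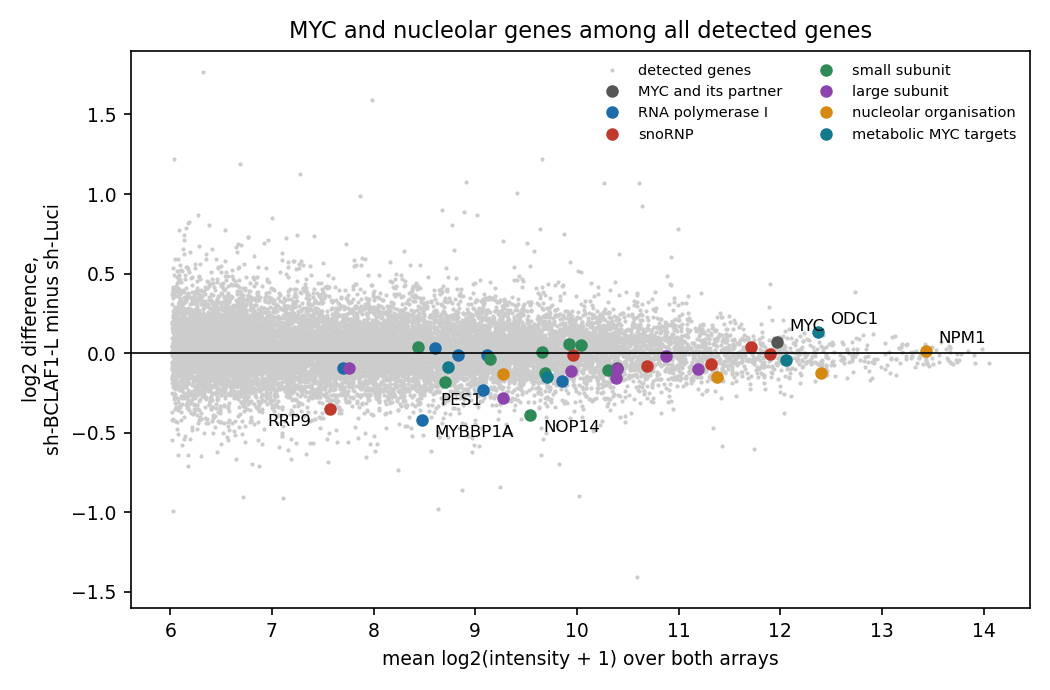
Log2 difference (y axis, sh-BCLAF1-L minus sh-Luci) against the mean log2 intensity over both arrays (x axis) for the 14507 detected genes in grey and the 39 genes in the colour of their step. The coloured points lie between -0.42 and 0.13.

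The other genes of the pathway, from lists that hold none of the 45, had a median nearer to 0. Of 159 detected genes in the lists for RNA polymerase I, snoRNPs, the small subunit, the large subunit and the RNA exosome, 100 were lower, or 62.9%, with a median of -0.035. At least 1.2-fold lower were 5 of the 159 and at least 1.2-fold higher 2, or 3.14% and 1.26%, both under the shares of all detected genes given above. Of 54 other small-subunit genes 37 were lower (median -0.037), of 55 other large-subunit genes 34 (median -0.039), of 15 other snoRNP genes 10 (median -0.059) and of 17 exosome genes 11 (median -0.019). With the median over probe sets, the other snoRNP genes had 8 of 15 lower and a median of -0.020. The 18 other RNA polymerase I genes had 8 lower and a median of 0.016, although that median was below 0 in 3 of the alternative settings. RRN3, the factor that recruits the polymerase, read 982 in sh-BCLAF1-L and 906 in sh-Luci, a difference of 0.12.

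Few single genes of these lists passed 1.2-fold. Lower were TSR3, which modifies 18S RNA, at 274 in sh-BCLAF1-L and 342 in sh-Luci, NIP7 at 577 and 705, and RRP15 at 300.5 and 365, each lower on both detected probe sets. POLR2L, a small subunit shared by the nuclear RNA polymerases, read 1558 in sh-BCLAF1-L and 1893 in sh-Luci. PHAX, an export adaptor of small RNAs, differed by -0.28 and was lower on 2 of its 3 detected probe sets, with 0.02 on the other. Higher were RIOK2, a kinase of late small-subunit maturation, at 1065 in sh-BCLAF1-L and 821 in sh-Luci, and NOP53 at 185 and 139. The second probe set of RIOK2 differed by 0.06.

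Neighbouring gene groups gave medians that depended on the probe sets used or on centring. RNA polymerase III genes had 11 of 22 lower and a median of -0.0025, but 15 of 22 and -0.049 with the median over probe sets. Genes of nucleotide and polyamine synthesis had 11 of 26 lower and a median of 0.017, which became -0.0087 after centring on the median difference. Of the nucleotide and polyamine list, GART, an enzyme of purine synthesis, read 723 in sh-BCLAF1-L and 953 in sh-Luci. It was lower on 6 of its 7 detected probe sets, which spread from -0.40 to 0.50. Of the factors around MYC, 2 of 16 were lower and 14 higher, against 45% of all detected genes lower. Their median was 0.035 against 0.019 for all detected genes. With the median over probe sets 2 of 16 were lower (median 0.062), and without _s_at and _x_at probe sets 2 of 11. The count rested on small positive values and changed with centring. After centring on the median difference 7 of the 16 were lower, against 52% of all detected genes. After loess correction 5 were lower, against 49%. Among the 16, MNT, a repressor that competes with MYC for MAX, read 517 in sh-BCLAF1-L and 445 in sh-Luci, a difference of 0.22. MXI1, of the same kind, differed by 0.13. Both were named after their values were seen, and none of the 16 reached 1.2-fold. Genes of nucleolar stress and import had 8 of 15 lower and a median of -0.023. MDM2 differed by -0.29 and was lower on 6 of its 7 detected probe sets, which spread from -0.29 to 0.15. CDKN2A differed by 0.45 on a dim probe set, at 95.1 in sh-BCLAF1-L and 69.2 in sh-Luci. Its other detected probe set differed by 0.089.

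**Figure D3:**
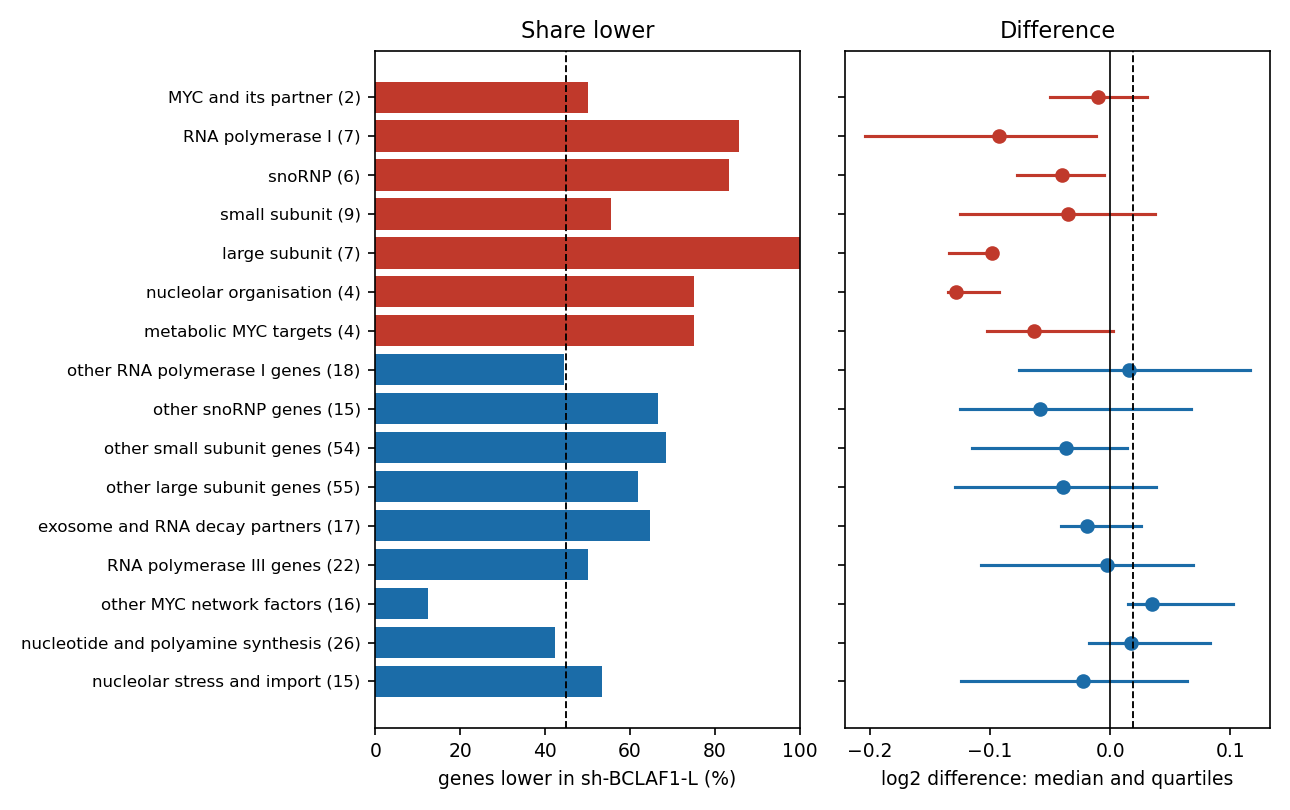
Share of detected genes lower in sh-BCLAF1-L (left, percent) and the median difference with its quartiles (right, log2), with the 39 genes by step in red, the wider lists in blue and the number of detected genes in brackets. Dashed lines are the values of all detected genes, 45% and 0.019. The share is highest for the 7 large-subunit genes and lowest for the 16 factors of the MYC network. After centring on the median difference, 7 of the 16 factors were lower, against 52% of all detected genes.

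**Figure D4:**
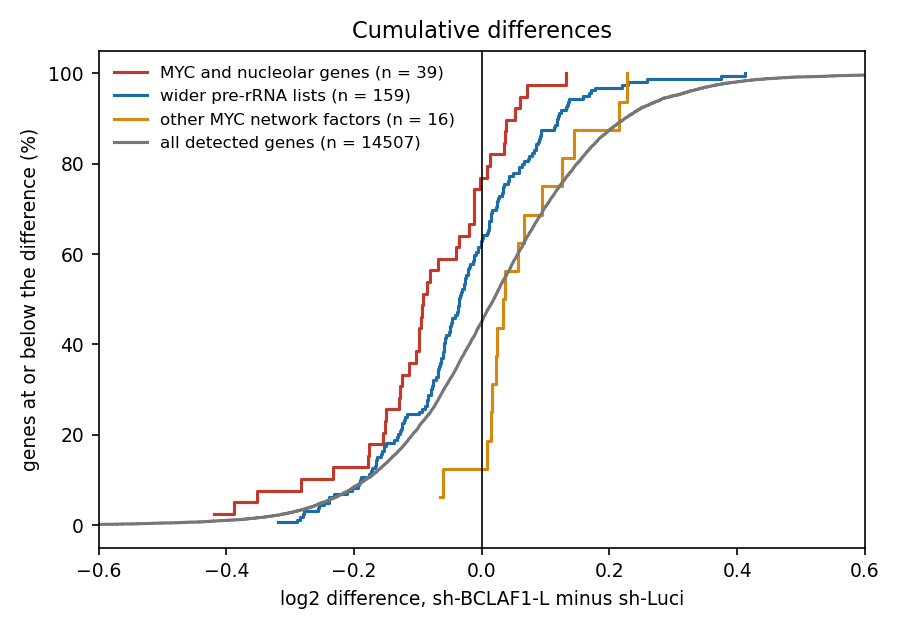
Cumulative share of genes (y axis, percent) at or below a log2 difference (x axis, sh-BCLAF1-L minus sh-Luci). At 0 the curves stand at 76.9% for the 39 MYC and nucleolar genes, 62.9% for the 159 wider pre-rRNA genes, 12.5% for the 16 factors of the MYC network (43.8% after centring on the median difference) and 45% for all detected genes.

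Most of the 39 genes stayed lower under both ways of centring the arrays. After centring on the median difference over the table (0.026), 32 of the 39 genes were lower against 52% of all detected genes. Because that step lowers every difference by 0.026, it could only add genes below 0. After loess correction for mean intensity, 30 were lower against 49%. Of the 159 wider genes, 114 and 106 were lower under these settings. Among the alternative settings, changing the filter moved no value of the 39 genes. A larger pseudocount cannot turn the sign of a difference on a given probe set. The sign could turn through the probe set rule or centring. In every setting in which they had a value, 25 of the 39 genes were lower, and MYC, NHP2, NOB1 and ODC1 were higher. The other 10 had both signs.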

How the data were processed

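Expression was measured in RKO cells with 1 array per hairpin (sh-BCLAF1-L and sh-Luci), from 200 ng of total RNA labelled as biotinylated cRNA with an Affymetrix 3' IVT kit, per the labels' protocols. The authors deposited intensities on a linear scale, 1 per probe set and array, made with RMA, per the submitters' processing notes. The program, its version, the final scaling and the build were not given in the sources used here. The number of arrays limits the precision.

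Of 54675 probe sets, 41097 had 1 gene symbol, 1801 several and 11777 none. For 41043 of the probe sets with 1 symbol, the Entrez identifier was found in a RefSeq gene table (GRCh38.p14), and its symbol was used. How many symbols changed was not counted. Intensities were transformed as log2(value + 1). A gene took its brightest probe set with 1 symbol. Genes were called by size alone, at 1.2-fold, with 1.5-fold as an alternative, since 1 array per group allows no test. The genes, the lists and the thresholds were chosen with earlier results of these data known. Text names all 45 genes and, from each wider list, up to 4 detected genes per direction past 1.2-fold. RRN3, MNT and MXI1 were named outside that rule, after their values were seen. Promoters are from RefSeq. Alternatives covered the probe set rule, the filter, centring and the pseudocount. The script was tested on simulated data. Python 3.11.15, pandas 2.3.3 and statsmodels 0.14.6 were used.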

Additional observations from a re-analysis of the deposited data

How the results depend on the processing

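No paired analysis was possible because there was a single array per hairpin, which also leaves no replicate to omit. In each setting, list medians were compared with the reported ones by the probe set SD divided by the square root of the number of genes. Counts were compared by whether they lay within 1.5-fold, and single genes by the undivided SD. None of these measures is an error of the result, since genes read on the same arrays are not replicates. Changing the filter left the value of each of the 39 genes as it was. On a given probe set, neither a larger pseudocount nor median subtraction can raise a difference from below 0 to above it. Over the 7 alternatives to the probe set rule, filter, centring and pseudocount, 30 to 32 of the 39 genes were lower (26 of 30 without _s_at and _x_at probe sets). Those at least 1.2-fold lower were 3 to 6, against 2.63% to 6.06% of all detected genes. The 6 were among the 30 genes left without _s_at and _x_at probe sets, where 4.56% of all detected genes were that far lower. Those at least 1.2-fold higher were 0, against 4.35% to 10.2% of all detected genes. The group median ran from -0.12 (median difference subtracted) to -0.068 (median over probe sets). At 1.5-fold the count lower was 0, against 0.2% of all detected genes. With the median over probe sets, the median of MYC and MAX reversed to 0.023, that of the small-subunit genes was -0.12 that of the nucleolar organisation genes -0.038, that of the metabolic MYC targets -0.0036, that of the other snoRNP genes -0.020 and that of the RNA polymerase III genes -0.049. Without _s_at and _x_at probe sets the small-subunit median was -0.10, and those of the RNA polymerase III and nucleolar stress genes were -0.038 and -0.0020. The median of the other RNA polymerase I genes reversed to -0.021 (median over probe sets), -0.058 (without _s_at and _x_at probe sets) and -0.010 (median difference subtracted), and that of nucleotide and polyamine synthesis to -0.0087 (median difference subtracted). The shift after median subtraction follows from its construction. The cause of the other changes was not tested. All 39 genes also passed the filter at the 60th percentile, which ranks intensities and does not measure background. RRP9 read 167 in sh-BCLAF1-L and 213 in sh-Luci, near HBB, among the 2 detected blood cell markers, at 226 and 196. How far background enters such values was not tested.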

Other observations

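The probe sets that carry the symbol of NOP56, DKC1, BOP1 or PPAN beside the symbols of other genes entered no comparison. There were 2 for NOP56, 3 for DKC1, 2 for BOP1 and 1 for PPAN. All 8 were detected, and 7 were lower in sh-BCLAF1-L than in sh-Luci, against 46.1% of the detected probe sets with 1 symbol. The share over all probe sets with several symbols was not computed. Their differences ran from -0.35 to 0.03 with a median of -0.12. Which of the genes each one reads is not settled by the annotation used here.

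Of the promoters of the wider pre-rRNA genes, 27.0% of 141 held an E-box. The 38 detected genes of these lists with the motif had 22 lower and a median of -0.042, and the 99 without it had 64 lower and a median of -0.034.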
